A study of Homo sapiens with 4 samples.

Results

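The genes described here were 10 regulators of the G1 phase of the cell cycle, namely the Cip/Kip inhibitor genes *CDKN1A*, *CDKN1B*, and *CDKN1C*, the INK4 inhibitor genes *CDKN2A*, *CDKN2B*, *CDKN2C*, and *CDKN2D*, and the D-type cyclin genes *CCND1*, *CCND2*, and *CCND3*. They were chosen by name and family, from 20007 annotated protein-coding genes, with earlier results of these data known. A peak was assigned to a gene when it overlapped the gene body plus 10 kb on each side by at least 1 bp, and it was called a promoter peak when its centre lay between 1000 bp upstream and 100 bp downstream of an annotated transcription start site of that gene. With vehicle, the 10 genes held 17 SS18::SSX peaks out of 15141 and 32 WDR5 peaks out of 35605. With the WDR5 degrader MS67, they held 0 SS18::SSX peaks out of 1175 and 14 WDR5 peaks out of 14123. The windows of *CDKN2A* and *CDKN2B*, which are neighbours on chromosome 9, overlap, and peaks in both were counted once in these totals.

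Progression through G1 is driven by cyclin D, which activates the kinases CDK4 and CDK6 so that they phosphorylate the retinoblastoma protein and release E2F transcription factors. INK4 proteins bind CDK4 and CDK6 and keep cyclin D from activating them, whereas Cip/Kip proteins bind assembled cyclin–kinase complexes and can block CDK2. Several of the inhibitor genes are silenced by Polycomb complexes in proliferating cells and are induced in senescence or by p53, and the BAF (SWI/SNF) chromatin remodelers, of which SS18 is a subunit, are known to act at some of them.

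All cells were HSSY II, a human synovial sarcoma line that carries the SS18::SSX1 fusion, in which SS18 is joined to SSX. WDR5 is a scaffold of the complexes that methylate lysine 4 of histone H3, and MS67 is a PROTAC, a small molecule that recruits an E3 ligase to WDR5 for its degradation. Cells received DMSO or 2.5 μM MS67 for 4 days, and CUT&RUN, which cuts and sequences the chromatin around an antibody-bound protein, was done with an antibody against SS18::SSX or WDR5. Mouse NIH-3T3 fibroblasts were added to every library as a spike-in. There was 1 library per target and treatment, from a single cell line, so the differences described here could not be checked against replicates and carry no p-values.

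The deposited lists hold, for each peak, a fold enrichment over the local background and a −log10 q. They give no read totals, and whether a control library was used is not given in the sources used here. On the assumption that the local background came from the same library, fold and p-value together fixed a whole number of fragments at the summit for 100% of the peaks in every list, and the lowest background gave the genome-wide coverage. All coverage values and scaled counts below rest on this assumption. This coverage was 0.541 fragments per bp for SS18::SSX with DMSO and 0.737 with MS67, a ratio of 1.36. For WDR5, it was 0.368 with DMSO and 0.168 with MS67, a ratio of 0.458, so the WDR5 library of MS67-treated cells was the shallowest of the 4. Confidence intervals below are exact Clopper-Pearson intervals at 95% and cover counting error only.

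With DMSO, all 10 genes had a WDR5 peak in their window (100%, 95% CI 69.2 to 100), compared to 75.1% of all protein-coding genes. Under the stricter peak standard of the study (for WDR5, −log10 q above 3 and fold above 6), WDR5 peaks with DMSO were left at *CDKN1B*, *CDKN2A*, and *CDKN2B* alone, and numbered 3 in place of 32. An SS18::SSX peak was present at 7 of the 10 (70%, 95% CI 34.8 to 93.3), compared to 31.9% of protein-coding genes, and was absent from the lists at *CDKN2D*, *CCND1*, and *CCND3*. With MS67, WDR5 peaks were present at 8 of 10 genes (80%, 95% CI 44.4 to 97.5), compared to 54.2% of protein-coding genes, and were absent at *CDKN2D* and *CCND2*. No SS18::SSX peak was left at any of the 10 with MS67 (0%, 95% CI 0 to 30.8), where 3.64% of protein-coding genes had one. The peaks were unevenly spread over the genes, and 8 of the 17 SS18::SSX peaks lay at *CDKN2A* and *CDKN2B*.

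**Figure D1:**
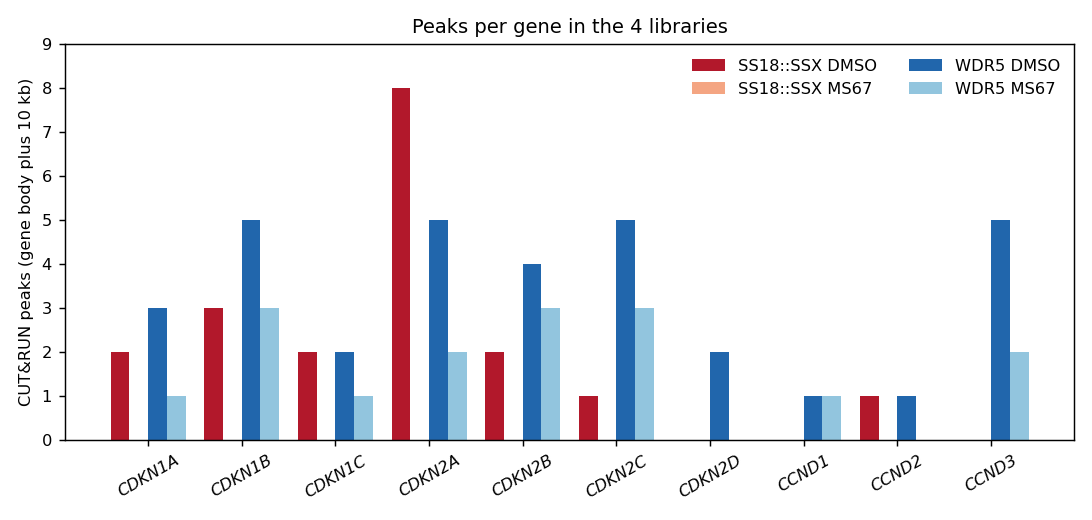
Number of CUT&RUN peaks (vertical axis) that overlap the gene body plus 10 kb of each gene (horizontal axis), with 1 bar for each of the 4 libraries. *CDKN2A* had the most SS18::SSX peaks with DMSO (8), all 10 genes had at least 1 WDR5 peak with DMSO, and no gene had an SS18::SSX peak with MS67.

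Because genes differ in length, the peaks were also counted per length. The merged windows of the 10 genes spanned 452683 bp and held 3.76 SS18::SSX peaks per 100 kb with DMSO, compared to 0.719 over the windows of all protein-coding genes. For WDR5, the density was 7.07 peaks per 100 kb with DMSO and 3.09 with MS67, compared to 1.85 and 0.778. The median length of the 10 genes was 13604.5 bp, compared to 27466 bp, and the part of this in the density was not tested. The local background at the 17 SS18::SSX summits had a median of 9.84 times the coverage of the library, compared to 5.72 over all SS18::SSX peaks. At the 32 WDR5 summits, it was 9.25 times, compared to 4.91. The background was thus higher at these loci in both libraries, and its part in the density was not tested. Leaving out *CDKN2A* and *CDKN2B*, a choice made after their counts were seen, left 9 SS18::SSX and 24 WDR5 peaks with DMSO.

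The promoters were examined next. With DMSO, a WDR5 promoter peak was present at 7 of the 10 genes (70%, 95% CI 34.8 to 93.3), compared to 43% of protein-coding genes, and was absent at *CDKN2D*, *CCND1*, and *CCND2*. An SS18::SSX promoter peak was present at *CDKN1C*, *CDKN2A*, and *CDKN2C*, which was 3 of 10 (30%, 95% CI 6.67 to 65.2), compared to 13.4%. The same 3 genes had promoter peaks of both proteins, compared to 9.35% of protein-coding genes. With MS67, WDR5 promoter peaks were present at 6 of the 10 (60%, 95% CI 26.2 to 87.8; all protein-coding genes, 27.7%) and SS18::SSX promoter peaks at 0 of the 10 (all protein-coding genes, 0.72%). Of the 7 genes with a WDR5 promoter peak, only *CDKN1A* had none with MS67 (14.3%, 95% CI 0.361 to 57.9), where 50.1% of such protein-coding genes had none. For SS18::SSX, it was all 3 of 3, compared to 95.9%. Scaled to the MS67 coverage, the *CDKN1A* promoter peak of WDR5 had a −log10 p of 3.46, below the lowest in that list (4.06). For this peak, a lower occupancy and a shallower library cannot be told apart. *CDKN1C* and *CCND3* were counted as keeping a WDR5 promoter peak, although none of their DMSO promoter peaks overlapped an MS67 peak. These counts depend on which starts are used. With the gene-level start of each gene alone, the WDR5 promoter counts were 3 with DMSO and 3 with MS67, and the SS18::SSX count with DMSO was 1. That SS18::SSX count was 7 with promoters of 1000 bp on each side, 5 when any overlap with the promoter counted, and 0 with −log10 q above 5, and at this last threshold the WDR5 counts were 4 with DMSO and 1 with MS67.

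**Figure D2:**
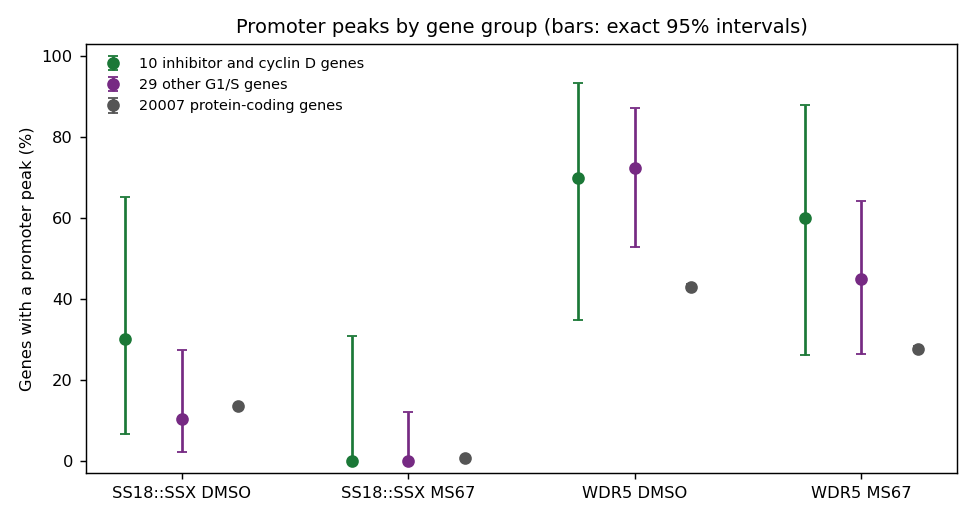
Percentage of genes with a promoter peak (vertical axis) in each of the 4 libraries (horizontal axis) for the 10 inhibitor and cyclin D genes, 29 other G1/S genes, and all protein-coding genes, where bars are exact 95% intervals. For WDR5 with DMSO, the 10 genes (70%) and the other G1/S genes (72.4%) both lay above all protein-coding genes (43%), and the intervals of the 2 gene groups overlapped in every library.

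Among the Cip/Kip genes, *CDKN1A* encodes p21, an inhibitor of CDK2 that p53 induces, and lies at chr6:36676460-36687337 on the plus strand. It had 2 SS18::SSX peaks with DMSO and 0 with MS67, and 3 WDR5 peaks with DMSO and 1 with MS67. All 5 DMSO peaks fell within the gene body. The SS18::SSX peaks lay at chr6:36678806-36679337, at the promoter of the antisense long noncoding RNA gene *DINOL*, and at chr6:36679478-36679901 in a *CDKN1A* intron, with −log10 q of 5.02 and 5.88. The WDR5 peaks flanked and overlapped them. The strongest, at chr6:36677165-36677326, had a −log10 q of 5.29, the one at chr6:36678388-36678597, in the shared promoter of *CDKN1A* and *DINOL*, had 3.50, and the one at chr6:36679393-36679551, also at the *DINOL* promoter, had 3.01. None of the 3 WDR5 peaks overlapped an MS67 peak, and the single MS67 peak (chr6:36667196-36667441, −log10 q 3.93) was intergenic, with its centre at -9142 bp from the nearest *CDKN1A* start. The last WDR5 peak shared 74 bp with the second SS18::SSX peak. This stretch, chr6:36679478-36679551, is given from the hg38 plus strand because both proteins were called on it, and its capitals mark a GC box (GGGCGG or CCGCCC, bound by SP and KLF factors).
CDKN1A intron: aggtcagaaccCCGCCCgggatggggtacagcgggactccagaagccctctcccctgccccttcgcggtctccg

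*CDKN1B*, which encodes p27, an inhibitor of CDK2 complexes, is annotated at chr12:12685498-12722369 on the plus strand, and most of its peaks lay near the start of its coding transcripts rather than at the upstream end of the annotated gene. It had 3 SS18::SSX peaks with DMSO and 0 with MS67, and 5 WDR5 peaks with DMSO and 3 with MS67. The SS18::SSX peak at chr12:12717551-12718487 was the strongest SS18::SSX peak of the 10 genes, with a −log10 q of 12.5, a 5.27-fold enrichment, and 38 fragments at its summit. It overlapped 2 WDR5 peaks, at chr12:12717160-12717715 (−log10 q 7.43) and chr12:12717886-12718591 (3.54), which lie at the promoter and a coding exon. Both of these WDR5 peaks overlapped MS67 peaks, of which there were 3 between 12717151 and 12718326, with −log10 q of 1.81, 3.58, and 1.82. At the promoter, the WDR5 summit had 22 fragments with DMSO, 59.9 times the coverage, and 9 with MS67, 53.4 times the coverage. The MS67 peak at chr12:12717809-12717982, which also counted as a promoter peak, went the other way. It had 12 fragments, 71.2 times the coverage, and the DMSO peak that it overlapped had 16, 43.5 times the coverage. These values carry no spike-in scaling, so a change at either site was not measured.

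The other *CDKN1B* peaks had no counterpart with MS67. Upstream, a WDR5 peak at chr12:12696529-12696946 (−log10 q 5.67, 6.29-fold) lay in a promoter shared by a *CDKN1B* transcript and *GPR19*, an orphan receptor gene. Downstream, the WDR5 peak at chr12:12724039-12724344 had the highest −log10 q of WDR5 at this gene (8.23) and lay at the promoter of the long noncoding RNA gene ENSG00000256658, and a further peak at chr12:12724921-12725301 (3.34) lay at the *APOLD1* promoter. SS18::SSX peaks at chr12:12723680-12723857 (6.27) and chr12:12731855-12732132 (4.79) lay 182 bp and 2598 bp from the nearest WDR5 peak. The bases before the start that kept WDR5, chr12:12717118-12717367 on the plus strand, follow. Like the other promoter sequences, they are from RefSeq (GRCh38.p14). In these sequences, capitals mark GC boxes, CCAAT boxes (CCAAT or ATTGG, bound by NF-Y), and E-boxes (CACGTG), searched on both strands.
CDKN1B promoter: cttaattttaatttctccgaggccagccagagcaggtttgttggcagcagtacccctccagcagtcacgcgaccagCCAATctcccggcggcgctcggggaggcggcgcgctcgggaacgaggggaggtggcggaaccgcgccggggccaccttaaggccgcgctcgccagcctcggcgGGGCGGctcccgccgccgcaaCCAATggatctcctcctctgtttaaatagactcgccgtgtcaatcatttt

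*CDKN1C*, an imprinted gene that encodes p57, lies at chr11:2883213-2885775 on the minus strand. It had 2 SS18::SSX peaks with DMSO and 0 with MS67, and 2 WDR5 peaks with DMSO and 1 with MS67. The SS18::SSX peak at chr11:2886526-2886813 (−log10 q 4.28) and the WDR5 peak at chr11:2886288-2886514 (3.31) both counted as promoter peaks but lay 12 bp apart without overlap. A weaker SS18::SSX peak at chr11:2887057-2887223 (2.04) lay farther upstream, and a WDR5 peak at chr11:2881751-2882166 (3.62) lay beyond the 3′ end of the gene. With MS67, the promoter held a different WDR5 peak, at chr11:2885523-2885737, 551 bp from the nearest DMSO peak. Its −log10 q of 5.50, with 5.84-fold enrichment and 14 fragments at the summit, was the highest of the 14 MS67 peaks. *CDKN1C* was thus counted as having a WDR5 promoter peak in both treatments although the 2 calls did not overlap.

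Among the INK4 genes, *CDKN2A* had the most peaks. It lies at chr9:21967752-21995301 on the minus strand and encodes p16INK4a and, from an upstream first exon, p14ARF, which stabilizes p53. SS18::SSX had 8 peaks in its window with DMSO and 0 with MS67, and WDR5 had 5 with DMSO and 2 with MS67. WDR5 was strongest at the start of the ARF transcripts, in a peak of 2031 bp at chr9:21994168-21996198 (−log10 q 11.7, 6.04-fold) that spans the promoters of *CDKN2A*, the divergent long noncoding RNA *CDKN2B-AS1* (ANRIL), and ENSG00000266446. This peak overlapped both MS67 peaks of the gene, at chr9:21994663-21994818 (4.11) and chr9:21995324-21995545 (3.38), which together covered a small part of it. At the start of the p16INK4a transcripts, by contrast, the WDR5 peak at chr9:21974453-21975265 (8.20) had no counterpart, and the nearest MS67 peak was 19398 bp away. Its summit held 26 fragments with DMSO. The 3 other WDR5 peaks, at 21970893 to 21971143 (4.39), 21968363 to 21968717 (5.30), and 21965358 to 21966002 (4.02), lay toward the 3′ end and had no MS67 counterpart either.

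SS18::SSX at *CDKN2A* followed a different order of strength. Its strongest peak, at chr9:21966272-21966476 (−log10 q 8.55, 32 fragments), lay past the 3′ end of the gene at the promoter of *CDKN2A-DT*, and 4 others lay between 21965480 and 21970898, with −log10 q from 3.58 to 4.83. At the p16INK4a exon, SS18::SSX had a peak at chr9:21974597-21974751 (2.77), which lay wholly within the WDR5 peak there, and near the ARF start it had one at chr9:21993824-21994221 (4.08), within the *CDKN2B-AS1* promoter, which met the edge of the WDR5 peak. The remaining peak, at chr9:22005256-22006060 (4.44), was in *CDKN2B*. The only one of the 8 that counted as a *CDKN2A* promoter peak, at 21970426 to 21970898 (3.59), lay at an internal start and shared 6 bp with the WDR5 peak beside it. The local background there was 14.6 times the coverage for SS18::SSX and 20.5 times for WDR5, the highest among the peaks of the 10 genes, and its part in the calls was not tested. The sequences that follow are the stretch shared by both proteins at the p16INK4a exon (chr9:21974597-21974751), the stretch shared near the ARF start (chr9:21994168-21994221), and the RefSeq bases before the ARF start (chr9:21995325-21995574), all written on the minus strand. The ARF promoter held none of the searched motifs.
CDKN2A p16INK4a exon: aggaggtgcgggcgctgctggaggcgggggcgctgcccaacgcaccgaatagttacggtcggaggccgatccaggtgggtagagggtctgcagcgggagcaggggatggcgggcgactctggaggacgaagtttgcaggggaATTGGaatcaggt
CDKN2A ARF exon: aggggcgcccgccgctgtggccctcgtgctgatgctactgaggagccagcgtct
CDKN2A ARF promoter: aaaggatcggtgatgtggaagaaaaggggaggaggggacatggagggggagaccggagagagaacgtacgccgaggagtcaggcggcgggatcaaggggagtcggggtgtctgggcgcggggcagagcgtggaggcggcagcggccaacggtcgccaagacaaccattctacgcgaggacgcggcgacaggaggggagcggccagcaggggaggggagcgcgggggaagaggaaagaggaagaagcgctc

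*CDKN2B*, which encodes p15INK4b, a mediator of growth arrest by TGF-β, lies at chr9:22002903-22009305 on the minus strand. SS18::SSX had 2 peaks there with DMSO and 0 with MS67, and WDR5 had 4 with DMSO and 3 with MS67, of which the peaks around the ARF start were shared with the *CDKN2A* window. Its promoter had the strongest WDR5 peak of the 10 genes, at chr9:22008769-22009643, with a −log10 q of 15.5, a 7.82-fold enrichment, and 30 fragments at the summit. The peak overlapped one with MS67 at chr9:22009151-22009441, with a −log10 q of 4.59, a 6.02-fold enrichment, and 9 fragments. Relative to the coverage of each library, the summits were 81.6 and 53.4. Without spike-in scaling, these values do not measure a change at this site. No SS18::SSX peak overlapped this promoter, and the nearest was 2709 bp away. Within the gene, SS18::SSX and WDR5 met instead in and beside a coding exon, where the SS18::SSX peak at chr9:22005256-22006060 overlapped WDR5 peaks at chr9:22005564-22005789 (3.96) and chr9:22005957-22006207 (4.61), both without a counterpart with MS67. The RefSeq bases before the *CDKN2B* start, chr9:22009306-22009555 on the minus strand, hold 2 GC boxes and are shown because WDR5 was called on them with and without MS67.
CDKN2B promoter: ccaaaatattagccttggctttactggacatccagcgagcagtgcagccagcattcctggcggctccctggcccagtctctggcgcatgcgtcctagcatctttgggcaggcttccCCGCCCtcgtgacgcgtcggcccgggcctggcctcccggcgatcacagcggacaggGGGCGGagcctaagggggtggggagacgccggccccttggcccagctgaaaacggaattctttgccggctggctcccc

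*CDKN2C*, which encodes p18INK4c, lies at chr1:50960745-50974634 on the plus strand and has several annotated promoters. It had 1 SS18::SSX peak with DMSO and 0 with MS67, and 5 WDR5 peaks with DMSO and 3 with MS67. By the 1 bp rule, 3 of its 5 WDR5 peaks overlapped an MS67 peak, the most among the 10 genes. This count of 3 rests on that rule, since 31 of the 32 WDR5 peaks of the 10 genes had no counterpart when 50% of the peak had to overlap. The share over all WDR5 peaks under the 50% rule was not computed. At the upstream promoter, which is shared with *FAF1* on the other strand, a WDR5 peak at chr1:50960372-50960559 (−log10 q 4.84) overlapped an MS67 peak at chr1:50960237-50960642 (2.43). At the internal promoters, WDR5 peaks at chr1:50968164-50968482 (6.81) and chr1:50970038-50970211 (1.39) had no counterpart, whereas the one between them, at chr1:50969370-50969805 (4.19), overlapped an MS67 peak at chr1:50969036-50969405 (2.66) whose own centre fell at the promoter of ENSG00000290102. Beyond the 3′ end, the WDR5 peak at chr1:50977075-50977307 (7.67) overlapped one at chr1:50977270-50977545 (2.26). The SS18::SSX peak at chr1:50969924-50970102 (2.65, 10 fragments) overlapped the weakest of these WDR5 peaks. Both overlap an internal promoter, chr1:50969995-50970244, which holds 1 GC box, 1 CCAAT box, and 1 E-box and is given after the upstream promoter, chr1:50960495-50960744, where WDR5 was called in both treatments.
CDKN2C upstream promoter: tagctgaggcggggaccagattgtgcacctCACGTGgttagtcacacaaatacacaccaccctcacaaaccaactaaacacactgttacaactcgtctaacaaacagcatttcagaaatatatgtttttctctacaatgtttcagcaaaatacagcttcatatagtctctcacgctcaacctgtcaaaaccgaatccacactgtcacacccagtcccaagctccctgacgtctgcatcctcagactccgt
CDKN2C internal promoter: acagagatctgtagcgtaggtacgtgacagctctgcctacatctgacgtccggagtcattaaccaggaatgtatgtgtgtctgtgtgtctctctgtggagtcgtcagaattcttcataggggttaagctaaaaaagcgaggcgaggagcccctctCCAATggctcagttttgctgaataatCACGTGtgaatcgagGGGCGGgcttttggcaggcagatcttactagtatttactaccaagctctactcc

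*CDKN2D*, which encodes p19INK4d and lies at chr19:10566460-10569059 on the minus strand, had the fewest peaks of the inhibitor genes. It had 0 SS18::SSX peaks in both treatments, and 2 WDR5 peaks with DMSO and 0 with MS67. Neither WDR5 peak was at its promoter. The one at chr19:10566142-10566392 (−log10 q 3.20) lay at the promoter of the adjacent gene *KRI1*, and the one at chr19:10572573-10572740 (1.95) was intergenic. Scaled to the MS67 coverage, they had a −log10 p of 3.18 and 2.67, below the lowest in the MS67 list (4.06). For both, a lower occupancy and a shallower library cannot be told apart. The nearest SS18::SSX peak with DMSO lay 149105 bp from a *CDKN2D* start.

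The D-type cyclin genes together had 1 SS18::SSX peak, at *CCND2*. *CCND2* lies at chr12:4269771-4305353 on the plus strand and had 1 SS18::SSX and 1 WDR5 peak with DMSO and 0 of both with MS67. The peaks, at chr12:4269881-4270049 (SS18::SSX, −log10 q 2.80) and chr12:4269818-4270031 (WDR5, 5.62), overlapped in the transcribed sequence just after the start, with centres 194 bp and 153 bp past it. They therefore fell outside the promoter as defined here, which ends 100 bp after the start. The nearest WDR5 peak with MS67 lay 41969 bp from a *CCND2* start.

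*CCND1*, at chr11:69641156-69654474 on the plus strand, had 0 SS18::SSX peaks in both treatments and 1 WDR5 peak in each. The WDR5 peaks did not overlap. With DMSO, the peak lay at chr11:69636775-69637311 (−log10 q 5.40), with its centre at -4114 bp from the start, and with MS67 at chr11:69639220-69639419 (1.70), at -1837 bp. They were 1909 bp apart, and the nearest SS18::SSX peak with DMSO was 36159 bp from a *CCND1* start.

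*CCND3*, at chr6:41934934-42050357 on the minus strand, is the longest of the 10 genes and had 0 SS18::SSX peaks in both treatments, with the nearest one 298361 bp away with DMSO. It had 5 WDR5 peaks with DMSO and 2 with MS67. The DMSO peaks fell into 2 groups. At the upstream end of the gene, those at chr6:42048170-42048911 (−log10 q 4.65, promoter), chr6:42047355-42047598 (3.06), and chr6:42046103-42046434 (3.18) had no counterpart, and no MS67 peak lay within 100 kb of them. Near the downstream promoters, the peak at chr6:41939991-41940656 (2.74), itself not a promoter peak, overlapped an MS67 promoter peak at chr6:41940378-41941202. The MS67 peak had a −log10 q of 4.83, a 5.52-fold enrichment, and 13 fragments at the summit. The DMSO summit also held 13 fragments. Relative to coverage, the summit of the DMSO peak was 35.4 and that of the MS67 peak 77.2. The 2 peaks overlapped only in part, and these values carry no spike-in scaling, so a change at a single site was not measured. The remaining DMSO peak there, at chr6:41941982-41942312 (4.07), lay 303 bp from an MS67 peak at chr6:41941498-41941679 (2.16) that overlapped no DMSO peak. WDR5 promoter peaks of *CCND3* were thus found at both ends of the gene with DMSO and at the downstream end alone with MS67. The RefSeq bases of a downstream promoter, chr6:41941809-41942058 on the minus strand, overlap the last of these DMSO peaks and hold 2 GC boxes and 1 CCAAT box.
CCND3 downstream promoter: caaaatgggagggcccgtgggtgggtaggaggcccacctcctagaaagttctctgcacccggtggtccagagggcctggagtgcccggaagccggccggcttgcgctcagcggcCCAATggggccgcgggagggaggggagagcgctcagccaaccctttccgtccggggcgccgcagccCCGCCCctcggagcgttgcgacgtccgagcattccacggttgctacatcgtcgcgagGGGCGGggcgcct

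**Figure D3:**
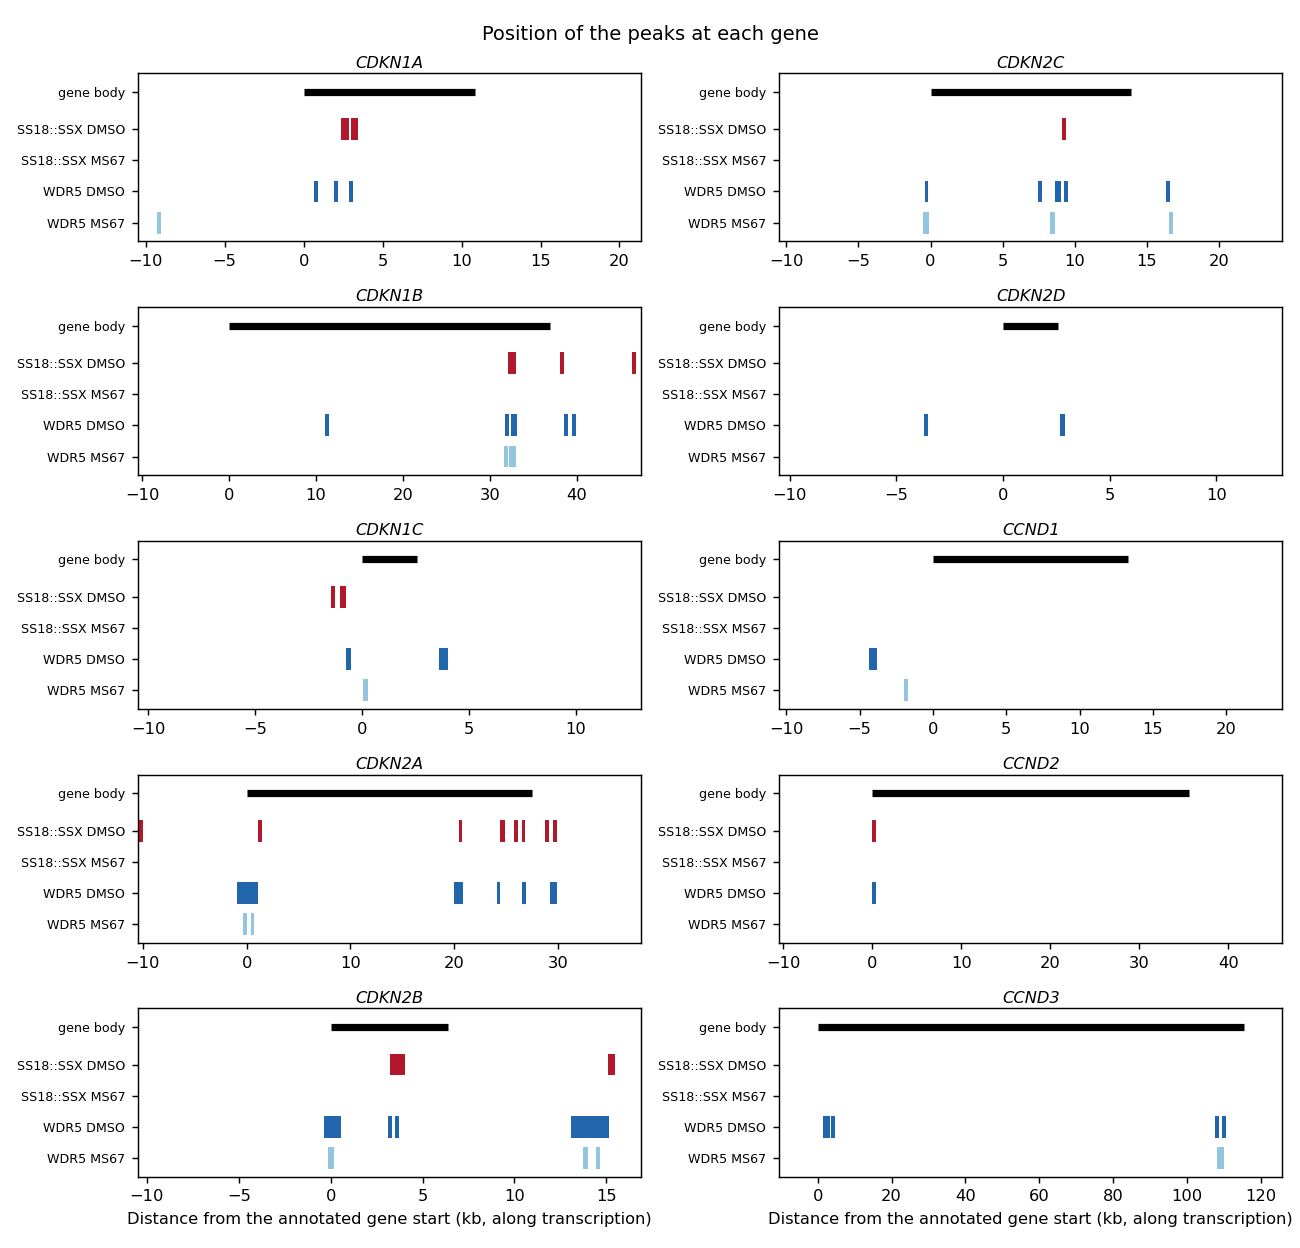
Peaks of the 4 libraries at each gene, plotted as the distance from the annotated gene start in kb along the direction of transcription, with the gene body as a black bar. Peaks too narrow to be seen are drawn wider around their centres, and scales differ between genes. At *CDKN2A*, WDR5 peaks with MS67 were left at the upstream start alone, and at *CCND3*, at the downstream end alone.

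The overlap of the 2 proteins was then compared in DMSO-treated cells. At the 10 genes, WDR5 was called on 10 of the 17 SS18::SSX peaks (58.8%, 95% CI 32.9 to 81.6), compared to 33.7% over the whole SS18::SSX list. Conversely, SS18::SSX was called on 12 of the 32 WDR5 peaks (37.5%, 95% CI 21.1 to 56.3), compared to 13.9% over the whole WDR5 list. Of the 10 shared SS18::SSX peaks, 6 lay at *CDKN2A* and *CDKN2B*, and *CDKN1A*, *CDKN1B*, *CDKN2C*, and *CCND2* had 1 each. At *CDKN1C*, where both proteins had promoter peaks, no peaks overlapped. Without *CDKN2A* and *CDKN2B*, the share of SS18::SSX peaks was 44.4% (4 of 9). At the stricter standard, which for SS18::SSX is −log10 q above 3 and fold above 3, 1 of 13 (7.69%) was shared, since only 3 WDR5 peaks passed it. The share over the whole SS18::SSX list at this standard was not computed, so 7.69% has no background to be read against.

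The 2 treatments were compared peak by peak. None of the 17 SS18::SSX peaks overlapped a peak with MS67, a loss of 100% (95% CI 80.5 to 100), compared to 94.2% of all SS18::SSX peaks. The nearest SS18::SSX peak with MS67 lay between 15584 bp (*CDKN1C*) and 10138754 bp (*CDKN1B*) from a start of these genes. The MS67 library had the higher coverage of the pair, and all 17 peaks would have passed the lowest −log10 p of its list (5.04) if scaled to it. Of the 32 WDR5 peaks, 24 had no MS67 counterpart (75%, 95% CI 56.6 to 88.5), which equalled the share over all WDR5 peaks of 75%. The 8 that did were 3 at *CDKN2C*, 2 at *CDKN1B*, and 1 each at *CDKN2A*, *CDKN2B*, and *CCND3*. Conversely, 4 of the 14 MS67 peaks overlapped no DMSO peak (28.6%, 95% CI 8.39 to 58.1), compared to 35.6% of all MS67 WDR5 peaks, and these were at *CDKN1A*, *CDKN1C*, *CCND1*, and *CCND3*.

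The lower coverage of the WDR5 library with MS67 bears on these counts. Scaled to that coverage, 19 of the 32 WDR5 peaks (59.4%) would still have passed the lowest −log10 p of the MS67 list (4.06), and 13 of these 19 had no counterpart (68.4%), compared to 67.0% over all such WDR5 peaks. The 11 other peaks without a counterpart would not have passed, so for them a lower occupancy and a shallower library cannot be told apart. Among WDR5 promoter peaks of the 10 genes, 9 of 14 had no counterpart (64.3%), compared to 63.4% of all peaks at protein-coding promoters. Outside their promoters, it was 15 of 18 (83.3%), compared to 79.6%. The total length covered by WDR5 peaks at the 10 genes went from 13823 bp to 4001 bp, a ratio of 0.289, and the median width from 325 bp to 234 bp. The summits, given as fragments over the coverage of the library, had a median of 46.2 (range, 21.8 to 81.6) with DMSO and 53.4 (29.7 to 83.1) with MS67. The 2 ranges overlapped over most of their length, and peaks below what a list could call are missing from it.

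**Figure D4:**
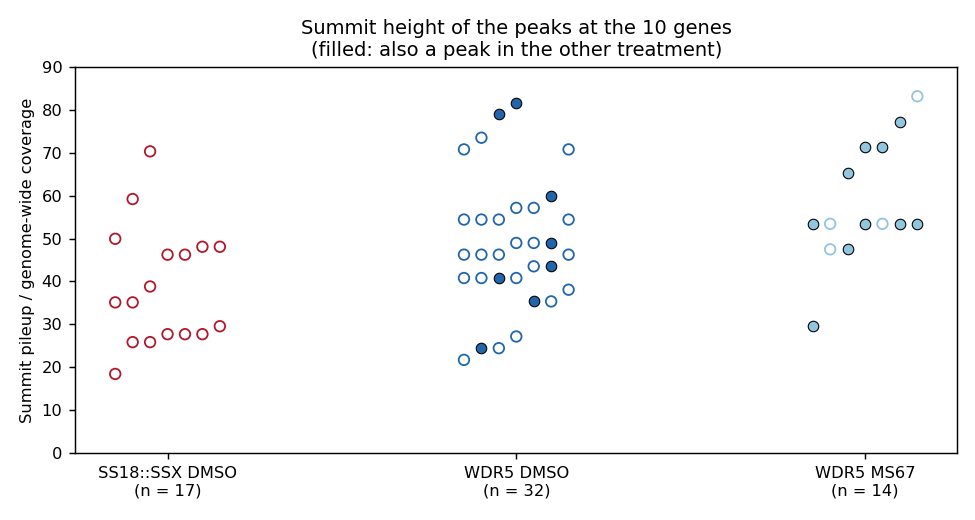
Fragments at the peak summit divided by the genome-wide coverage of the library (vertical axis) for the peaks at the 10 genes in the 3 libraries that had any. Each point is 1 peak, and filled points overlap a peak of the same protein in the other treatment. WDR5 summits spanned 21.8 to 81.6 with DMSO and 29.7 to 83.1 with MS67, and no SS18::SSX point is filled.

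The strength of the peaks was set beside that of the whole lists. The median −log10 q at the 10 genes was 4.28 for SS18::SSX (range, 2.04 to 12.5; all peaks, 3.68), 4.29 for WDR5 with DMSO (1.39 to 15.5; all peaks, 4.37), and 3.02 for WDR5 with MS67 (1.70 to 5.50; all peaks, 3.38). By −log10 q, the median peak of the 10 genes stood at the percentile 61.4 of the SS18::SSX list, 48.6 of the WDR5 list with DMSO, and 40.3 of the WDR5 list with MS67, and the strongest, at *CDKN1B*, *CDKN2B*, and *CDKN1C*, at 98.1, 98.8, and 86.5. Their sequence was rich in CpG dinucleotides. With DMSO, the median was 5.03 CpG per 100 bp for SS18::SSX peaks (all peaks, 3.10) and 6.22 for WDR5 peaks (all peaks, 3.30), and with MS67 it was 9.50 for WDR5 peaks (all peaks, 5.47). The median GC content was 61.0% for SS18::SSX (all peaks, 60.6%), 63.9% for WDR5 with DMSO (all peaks, 58.5%), and 66.5% with MS67 (all peaks, 62.7%).

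RefSeq promoter entries were found for 7 of the 10 genes, and not for *CDKN1C*, *CCND1*, and *CCND2*. Over 35116 RefSeq promoters, 42.6% hold a GC box in the 250 bases before the start, 32.0% a CCAAT box, and 6.34% an E-box. Against this, the printed promoters that held WDR5 in both treatments differed among themselves, with 1 GC box and 2 CCAAT boxes at *CDKN1B*, 2 GC boxes at *CDKN2B*, 1 E-box at the upstream *CDKN2C* promoter, and none of the 3 motifs at the ARF start of *CDKN2A*. A match is a string in the sequence and does not show that a factor binds there.

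For comparison, 29 other genes of the G1/S pathway were counted in the same way. WDR5 promoter peaks were present at 21 of them with DMSO (72.4%, 95% CI 52.8 to 87.3) and 13 with MS67 (44.8%), and 9 of the 21 had none left (42.9%, 95% CI 21.8 to 66.0). By the same count, it was 1 of 7 for the inhibitor and cyclin D genes (95% CI 0.361 to 57.9) and 50.1% for all protein-coding genes. The intervals of the 2 gene groups overlapped. Counted by peak, 64.3% of the WDR5 promoter peaks of the 10 genes had no MS67 counterpart, compared to 63.4% at all protein-coding promoters. SS18::SSX promoter peaks were present at 3 of 29 (10.3%, 95% CI 2.19 to 27.4), namely *CDK4* (−log10 q 1.69) and *CDK6* (2.19), the partners of cyclin D, and *CKS1B* (2.50), a cofactor in p27 turnover, and at none with MS67. With DMSO, the windows of the 29 genes held 0.340 SS18::SSX peaks per 100 kb. This density was 3.76 at the inhibitor and cyclin D genes and 0.719 over all protein-coding genes. SS18::SSX was called on 3 of the 63 WDR5 peaks of the 29 genes (4.76%, 95% CI 0.993 to 13.3). It was called on 37.5% of those of the 10 genes and 13.9% of the whole WDR5 list. At the 10 genes, leaving out *CDKN2A* and *CDKN2B* left 9 of the 17 SS18::SSX peaks. With DMSO or MS67, no SS18::SSX peak was found in the windows of the 10 E2F and DP genes or the 3 pocket protein genes. Of all protein-coding genes, 31.9% and 3.64% had one in their window. WDR5 promoter peaks with DMSO were present at 7 and 2 of the genes, respectively, compared to 43% of protein-coding genes. The strongest WDR5 promoter peaks were those of *FBXW7* (13.8), which encodes the ubiquitin ligase subunit that recognizes cyclin E, *TFDP2* (8.72), which encodes an E2F partner, and *SKP2* (8.34), which encodes the ligase subunit that recognizes p27. With MS67, *SKP2* had a promoter peak (5.70), and *FBXW7* and *TFDP2* had none.

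Last, genes with a like pattern were sought for the gene of highest summed −log10 q in each family, by the distance between the highest −log10 q in the window, as log2(1 + value), over the 4 libraries. Near to *CDKN1B* was *GNAI1* (distance 0.23). The nearest to *CDKN2B* were *OCEL1* and *NR2F6* (0.053 each), whose values were identical. The nearest to *CCND3* were *PGM2* (0.0067) and *WAC* (0.0081), with no SS18::SSX peak and WDR5 peaks in both treatments. The likeness rests on 4 values per gene and on the strongest peak alone.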

How the data were processed

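The peaks came from 4 CUT&RUN libraries, in which either SS18::SSX or WDR5 was profiled in HSSY II cells given DMSO or MS67. The SS18::SSX libraries also received an anti-GFP antibody for the spike-in cells. The authors aligned the reads to hg38 and, for the spike-in, to mm10, removed PCR duplicates with Picard, and called peaks with MACS2. The submitters' processing notes also list SAMtools 1.9, bedtools 2.28.0, and deepTools 3.3.0. MACS2 options and any control library were not given in the sources used here. For each peak, the authors deposited the fold enrichment at the summit, which is a ratio to the local background, and its −log10 p and −log10 q. These values carry no spike-in scaling, and signal tracks were not used here.

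Summit pileups and backgrounds were recovered from the fold and −log10 p of each peak (tolerance 0.001 in −log10 p), with the smallest background of each list as its coverage, on the assumption that the background came from the same library. The recovery and the overlap steps were tested on simulated data. Genes and transcripts were those of GENCODE 44 on hg38, and sequences were from RefSeq promoter entries (GRCh38.p14) or hg38. Peaks shared by lists overlapped by at least 1 bp. The 10 genes and the list of 29 G1/S genes were chosen with earlier results of these data known. All 10 genes were named, together with genes whose promoter held one of their peaks, and up to 8 G1/S genes with the highest −log10 q of a promoter peak or with an SS18::SSX promoter peak. For each family, the 2 genes with the most similar pattern were named, of which 1 is not reported here. The alternatives tried were stricter peaks, other windows, other promoters, merged peaks, other overlaps, and peaks scaled to the MS67 coverage. Scripts ran in Python 3.11.15. Versions of packages were 2.3.3 for pandas, 1.17.1 for scipy, 2.4.6 for numpy, and 3.10.9 for matplotlib.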

Additional observations from a re-analysis of the deposited data

How the results depend on the processing

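No paired analysis was possible because each condition had 1 library. In 38 of 67 comparisons of a summary value with an alternative, the value stayed within 1.5 times the reported count or within its interval, and the other 29 are given here. With −log10 q above 3 and fold above 3 (SS18::SSX) or 6 (WDR5), the peaks at the 10 genes numbered 3 for WDR5 with DMSO and 1 with MS67, their promoter counts were 3 and 1 genes, and 7.69% of SS18::SSX peaks overlapped WDR5. With −log10 q above 5, there were 5 SS18::SSX and 12 WDR5 peaks with DMSO and 1 WDR5 peak with MS67, the WDR5 loss was 100%, the overlap was 20%, and the promoter counts were 0 (SS18::SSX), 4 (WDR5 with DMSO), and 1 (WDR5 with MS67). This threshold was applied to both treatments, and the 1 MS67 peak left, at *CDKN1C*, overlapped no DMSO peak. The WDR5 loss of 100% thus depended in part on the threshold. The *CDKN2B* promoter peak (−log10 q 15.5), for example, overlapped an MS67 peak of 4.59, which did not pass it. The *CDKN2A* peak at the p16INK4a start (8.20) overlapped no MS67 peak of any strength. With 50 kb on each side, there were 30 SS18::SSX peaks with DMSO and 2 with MS67, and 56 and 26 WDR5 peaks. With the gene body alone, there were 11 SS18::SSX peaks with DMSO and 9 WDR5 peaks with MS67, and the overlap was 81.8%. An overlap of at least 50% of a peak gave a WDR5 loss of 96.9% and a shared share of 29.4%, and peaks within 1 kb gave a shared share of 94.1%. SS18::SSX promoter peaks with DMSO were found at 7 genes with promoters of 1000 bp on each side, 5 when any overlap counted, and 1 with the gene-level start, where WDR5 had 3 with DMSO and 3 with MS67. Without *CDKN2A* and *CDKN2B*, chosen after seeing the data, there were 9 SS18::SSX peaks with DMSO. The SS18::SSX loss stayed between 93.3% and 100% in every alternative. Apart from the scaling to the MS67 coverage, the alternatives were computed for the 10 genes alone, without the shares over whole lists. Of 200 counts at single genes, 122 stayed within 1.5 times, 63 were lower, and 15 were higher. The WDR5 library with MS67 had the lowest coverage, and the lowest summit at the 10 genes was 29.7 times the coverage there, compared to 21.8 times with DMSO.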
